A study of Mus musculus with 2 samples.

Results

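Hematopoietic stem cells are held in the bone marrow by a set of surface receptors and adhesion molecules, and the messenger RNAs of 37 such genes were followed in cultured long-term hematopoietic stem cells (LT-HSCs) with and without overexpression of Pot1a, the telomere-binding protein of the mouse shelterin complex. The genes were taken by name from a list drawn up with earlier results of these data known, as the array rows whose platform gene symbol was exactly that of the gene. All 37 were found among 22184 genes with a symbol. They were sorted by signal into chemokine receptors (2 genes), integrins (7), other adhesion and guidance molecules (6), angiopoietin receptors (2), receptors of the TGF-beta and BMP family (6), Notch genes (3), Wnt receptors (4), cytokine receptors (4) and growth factor receptors (3). 

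Both samples were LT-HSCs of 10-week-old male C57BL/6J mice, sorted as lineage-negative, Sca-1-positive, c-Kit-positive, CD48-negative and CD150-positive bone marrow cells. The cells were cultured for 1 day in serum-free medium with stem cell factor, transduced with a retrovirus and cultured for 3 further days, after which GFP-positive LT-HSCs were sorted again for RNA. The control-GFP sample received the mock vector and the Pot1a sample the vector with full-length wild-type Pot1a, in a retroviral backbone that also expresses GFP. With 1 Affymetrix gene array for each condition, the spread between replicates is unknown, so differences are described without a test and precision is limited by the number of arrays. How many mice were pooled is not given in the sources used here.

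Receptors of this kind read signals from the cells around a stem cell. The chemokine CXCL12 from stromal cells retains HSCs through CXCR4, integrins anchor them to matrix and to VCAM1, and angiopoietin and TGF-beta are known for keeping HSCs quiescent. Notch and Wnt ligands act over short distances between neighbouring cells, whereas cytokine receptors couple to JAK and STAT proteins and set survival and proliferation.

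Differences among the niche genes were small and mostly positive. Values are log2 of the deposited normalized intensity, and a difference is Pot1a minus control-GFP. A gene was taken as above the filter if its value reached that array's median over all genes in at least 1 array (6.05 in control-GFP and 6.03 in Pot1a). Of the 37 niche genes, 32 passed, each of them in both arrays, and Cdh2, Bmpr1a, Hes1, Lifr and Igf2r did not. Of these 32 genes, 24 were higher and 8 lower in the Pot1a array, beside 50.2% higher and 48.8% lower among the 11453 genes above the filter. Their median difference was 0.095, beside a median of 0.0014 for all genes above the filter. Only Fzd4 was at least 1.2-fold higher (a log2 difference of 0.26), which is 1 of 32 genes beside a background of 7.45%, and 0 were at least 1.2-fold lower beside 8.89%. The share of niche genes past 1.2-fold thus did not exceed the background, and most of their differences were small values of one sign. At 1.5-fold 0 members passed (background 0.506% higher and 0.445% lower), and at 2-fold 0 passed (0.0262% and 0.00873%). With all 37 genes and no filter, 26 were higher and 11 lower with a median of 0.072, and 2 genes, Fzd4 and the dim Bmpr1a, passed 1.2-fold, beside 10.7% higher and 13.9% lower over all 22184 genes.

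**Figure D1:**
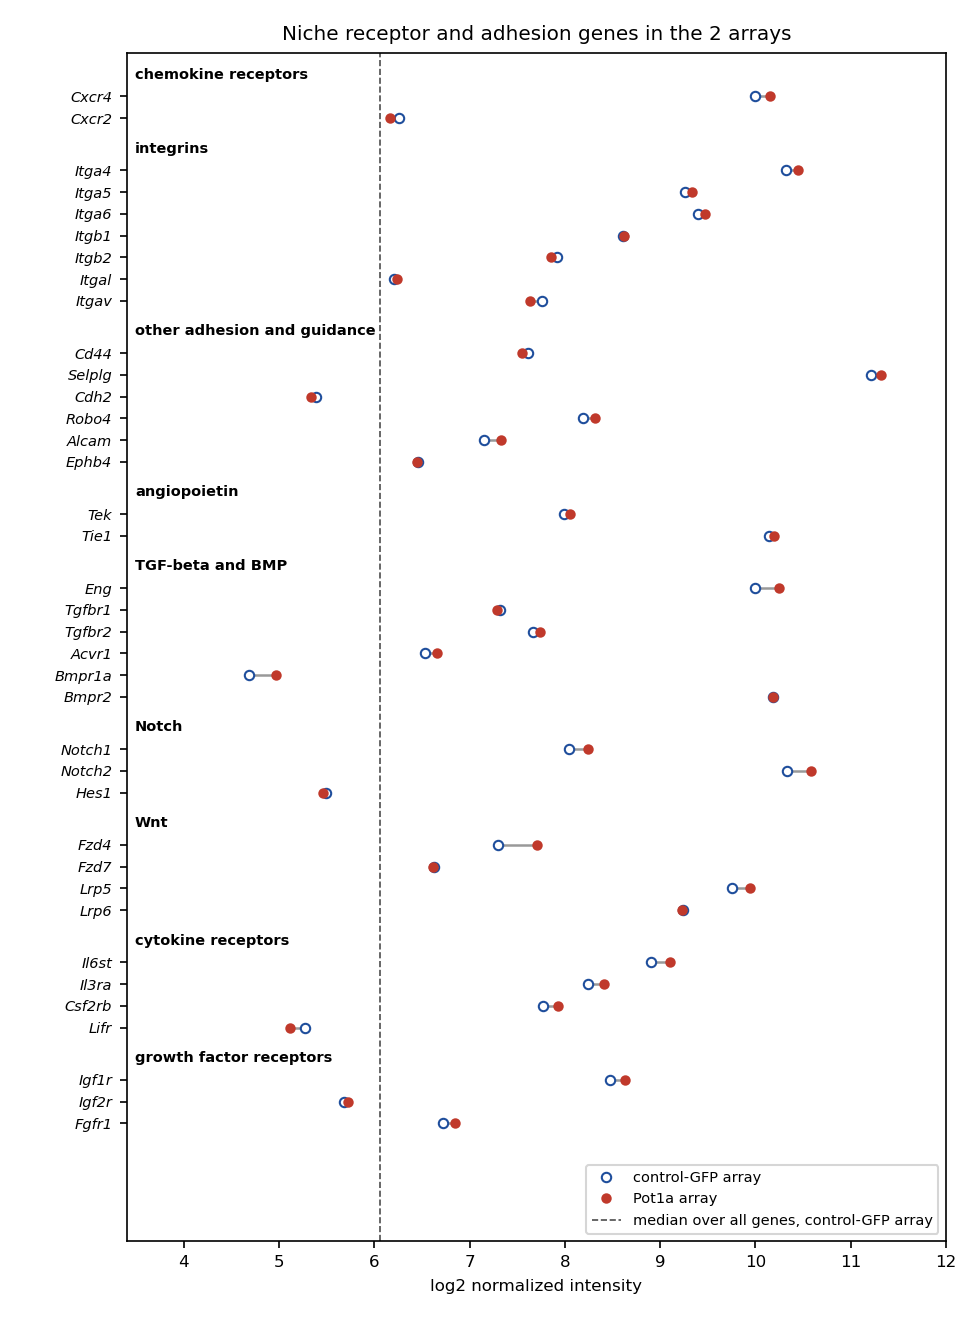
Log2 normalized intensity of each niche gene in the control-GFP array (open blue circles) and the Pot1a array (filled red circles), grouped by signal, with 1 array per condition and no error bars. The dashed line is the median of all genes in the control-GFP array (6.05), and 5 genes lie below it in both arrays.

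**Figure D2:**
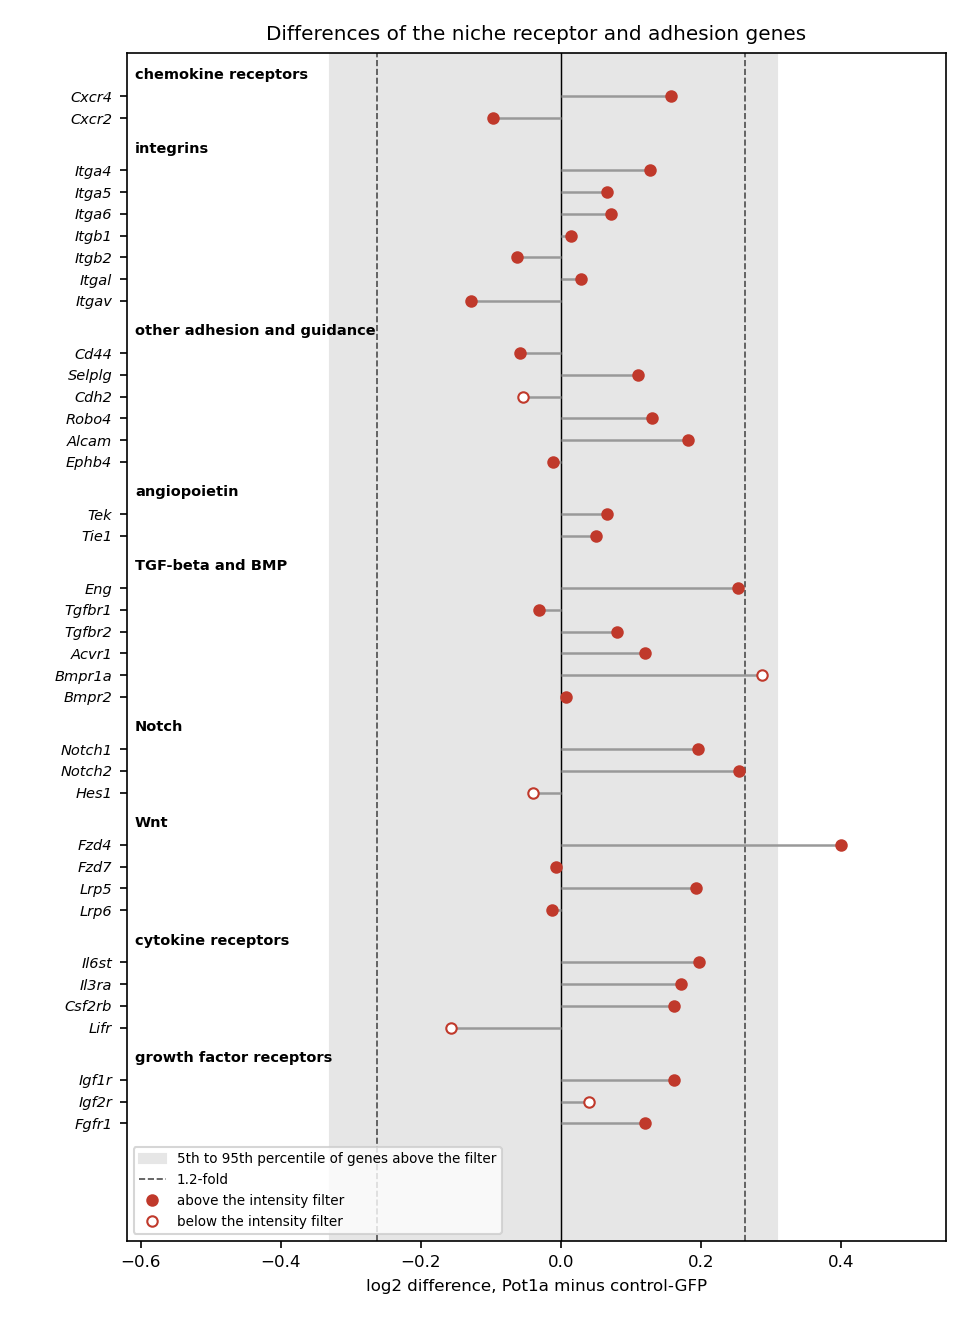
Log2 difference, Pot1a minus control-GFP, of each niche gene, with filled circles for genes above the intensity filter and open circles for the 5 below it. The grey band spans the 5th to the 95th percentile of all genes above the filter (-0.33 to 0.31) and the dashed lines mark 1.2-fold. Fzd4, at 0.40, is the only niche gene outside the band.

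Besides Fzd4, the genes with the highest differences above the filter were Notch2 and Eng, which lay just short of 1.2-fold (0.25 each), followed by Il6st, Notch1 and Lrp5. To show what lies at the start of these genes, the promoter windows of the 3 highest are printed from RefSeq (build GRCm38.p6), from 250 bases before to 50 bases after the annotated start, 5′ to 3′ on the + strand, on which all 4 genes shown here are read. POT1 binds single-stranded telomeric DNA, and TTAGG, a motif recognised by one of its DNA-binding folds, was searched on both strands (TTAGG or CCTAA). Robo4, the gene with the highest difference among those with a match, is printed beside them, and capitals mark its match. The windows are chr7:89404116-89404415 for Fzd4, chr3:98013288-98013587 for Notch2, chr2:32646345-32646644 for Eng and chr9:37401722-37402021 for Robo4.
Fzd4: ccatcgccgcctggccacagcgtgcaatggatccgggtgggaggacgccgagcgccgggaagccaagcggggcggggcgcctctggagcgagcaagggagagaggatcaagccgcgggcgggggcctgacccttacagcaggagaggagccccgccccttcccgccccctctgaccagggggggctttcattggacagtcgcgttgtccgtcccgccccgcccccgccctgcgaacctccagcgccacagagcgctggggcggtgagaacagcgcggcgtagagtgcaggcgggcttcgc
Notch2: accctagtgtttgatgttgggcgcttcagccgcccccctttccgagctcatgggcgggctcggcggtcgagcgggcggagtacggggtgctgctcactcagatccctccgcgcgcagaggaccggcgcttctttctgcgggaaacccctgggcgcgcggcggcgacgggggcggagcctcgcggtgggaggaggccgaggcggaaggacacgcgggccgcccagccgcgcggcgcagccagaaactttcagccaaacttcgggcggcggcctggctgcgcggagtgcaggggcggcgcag
Eng: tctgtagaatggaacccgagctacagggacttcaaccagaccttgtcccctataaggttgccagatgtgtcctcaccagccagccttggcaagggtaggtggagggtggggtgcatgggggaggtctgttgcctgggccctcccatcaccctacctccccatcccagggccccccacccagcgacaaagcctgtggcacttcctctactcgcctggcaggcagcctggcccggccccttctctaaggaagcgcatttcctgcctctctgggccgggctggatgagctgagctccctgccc
Robo4: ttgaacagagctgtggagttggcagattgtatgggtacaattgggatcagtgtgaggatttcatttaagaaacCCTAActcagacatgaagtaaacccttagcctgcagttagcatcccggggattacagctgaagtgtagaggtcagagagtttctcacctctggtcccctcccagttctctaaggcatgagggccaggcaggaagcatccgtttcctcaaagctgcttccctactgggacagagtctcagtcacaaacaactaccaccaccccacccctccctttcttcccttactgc

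The windows of Fzd4, Notch2 and Eng held 0 matches. Of the 27 niche genes with a window in the table, 6 (22.2%) held a match, namely Itga5, Cd44, Robo4, Ephb4, Tie1 and Lifr, and their differences ranged from -0.16 to 0.13. Counted likewise per gene, 36.0% of the 27025 genes with a window held a match, and 33.7% of those above the filter did. Of all 32851 windows, 32.8% held a match. The GC content was 72.7% for Fzd4, 73.0% for Notch2, 63.3% for Eng and 50.3% for Robo4, with medians of 66.7% over the windows of the niche genes and 52.7% over all windows. A match is a run of letters and does not show that POT1a binds there.

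The chemokine receptors differed in opposite directions. Cxcr4, the receptor of CXCL12 that holds HSCs in the marrow, had a log2 intensity of 9.99 in control-GFP and 10.15 in Pot1a cells, a difference of 0.16. Cxcr2, a receptor of neutrophil-attracting chemokines, had 6.26 and 6.16, a difference of -0.097, and lay close to the filter in both arrays. Among 20 related genes of this pathway 14 passed the filter, with a median of 0.065. At least 1.2-fold higher were 2 (14.3%), beside 7.45% of all genes, and 1 was lower, beside 8.89%. The higher genes were Rgs1, which shortens signalling from G protein-coupled receptors, at 0.59 (6.76 and 7.35) and the arrestin gene Arrb2 at 0.37 (9.88 and 10.25). Ackr3, a scavenging receptor of CXCL12, was lower at -0.32, but it passed the filter only through its control-GFP value (6.22 and 5.89).

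The integrin genes lay near 0, with 5 higher and 2 lower and a median of 0.029. Of all genes above the filter 50.2% were higher and 48.8% lower. Itga4, whose product pairs with the chain encoded by Itgb1 to bind VCAM1 and fibronectin, had 10.32 in control-GFP and 10.45 in Pot1a cells, a difference of 0.13. Itgb1 itself, the common beta chain, was nearly equal in both arrays at 8.61 and 8.62 (0.015). Itga5, the fibronectin receptor chain, had 9.27 and 9.33 (0.066), and the laminin receptor chain Itga6 had 9.40 and 9.47 (0.072). These 3 alpha chains, which pair with Itgb1, were thus higher by 0.066 to 0.13, and Itgb1 by 0.015. The leukocyte integrin chains Itgb2, with 7.92 and 7.85 (-0.063), and Itgal, with 6.21 and 6.24 (0.029), which form the ICAM receptor, differed in opposite directions. Itgav, a chain of vitronectin receptors, was the lowest of the group with 7.76 in control-GFP and 7.64 in Pot1a cells, a difference of -0.13, and its dimmer second probe set had a difference of -0.15. Of 32 related genes, which are other integrin chains, cytoskeletal adaptors and matrix ligands, 29 were measured and 21 passed the filter. In these, 17 (81.0%) were higher and 4 lower with a median of 0.12, beside the 50.2% and 48.8% of all genes. At least 1.2-fold lower were 0, beside 8.89% of all genes, and 1 (4.76%) was higher, beside 7.45%. This was Rap1gap, which inactivates Rap1 GTPases, at 0.30, and which reached the filter only in the Pot1a array (5.76 and 6.06). Parvb, an adaptor of focal adhesions, was at 0.26 (6.72 and 6.98) and Rap1b, a small GTPase that activates integrins from within, at 0.25 (10.88 and 11.13).

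Among the other adhesion and guidance molecules 3 of 5 genes above the filter were higher, with a median of 0.11. Alcam, an adhesion molecule of the immunoglobulin family, had 7.15 in control-GFP and 7.33 in Pot1a cells (0.18). Robo4, a guidance receptor that takes part in anchoring HSCs together with CXCR4, had 8.19 and 8.32 (0.13). Both lay inside 1.2-fold. Selplg, which encodes the selectin ligand PSGL-1, had 11.21 and 11.32 (0.11) by its brighter probe set. Its second probe set, assigned to the same gene, had 7.63 and 8.29, a difference of 0.66, so that the mean of both was 0.39 and past 1.2-fold. The probe sets of Selplg thus share a sign and disagree in size. The hyaluronan receptor Cd44 had 7.61 and 7.56 (-0.058), and Ephb4, a receptor of ephrin-B ligands, had 6.45 and 6.44 (-0.011). Cdh2, or N-cadherin, was below the filter with 5.39 and 5.33 (-0.054), and its second probe set had a difference of 0.093 at a still lower level. Of 29 related genes 26 were measured and 15 passed the filter, with 4 (26.7%) at least 1.2-fold higher, beside 7.45% of all genes, 0 lower, beside 8.89%, and a median of 0.21, the highest median among the 9 related lists. The junctional molecule F11r was at 0.37 (9.37 in the Pot1a array), the sialomucin Emcn at 0.36 (7.07 and 7.42) and Cd34, the stem and progenitor cell sialomucin, at 0.32 (10.50 and 10.82).

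The angiopoietin receptors were nearly equal in the arrays. Tek, which encodes TIE2, the receptor of angiopoietin, had 7.99 in control-GFP and 8.05 in Pot1a cells (0.066), and Tie1, its partner receptor, had 10.14 and 10.19 (0.050). The ligand gene Angpt1 had 10.57 and 10.66 (0.091). Of the 9 related genes 8 were measured and 4 passed the filter. In these, 0 passed 1.2-fold, beside 7.45% higher and 8.89% lower of all genes. The other 2 named by the rule were Cdh5, the endothelial cadherin, at 0.14 (7.06 and 7.20) and Dok2, an adaptor that binds TIE2, at -0.039 (7.99 and 7.95).

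In the TGF-beta and BMP family the highest difference above the filter was that of a coreceptor. Eng, or endoglin, an auxiliary receptor that binds TGF-beta and BMP ligands, had 9.99 in control-GFP and 10.25 in Pot1a cells, a difference of 0.25, and 8.25% of all genes above the filter had a difference at least as high. The type II receptors Tgfbr2, with 7.66 and 7.74 (0.080), and Bmpr2, with 10.18 and 10.19 (0.0079), and the type I receptors Tgfbr1, with 7.32 and 7.29 (-0.031), and Acvr1, with 6.53 and 6.66 (0.12), were closer to 0. Bmpr1a, a type I BMP receptor, was at 0.29, but at log2 intensities of 4.68 and 4.97 it was below the filter in both arrays. The median of the 5 genes above the filter was 0.080. Among 28 related genes 19 passed, with a median of -0.015. At least 1.2-fold higher were 3 (15.8%), beside 7.45% of all genes, and 0 were lower, beside 8.89%. The ligand gene Tgfb1 was at 0.52 (11.12 and 11.65), the inhibitory Smad gene Smad7 at 0.31 and the SMAD corepressor gene Ski at 0.28 (7.99 and 8.27). Smad7 passed the filter only through its Pot1a value (5.99 and 6.30). The list thus held a few higher genes over a median below 0.

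Notch1 and Notch2, the receptors among the niche genes, were both higher in the Pot1a array. Notch2 had 10.33 in control-GFP and 10.58 in Pot1a cells, a difference of 0.25, with 8.04% of genes above the filter at least as high. Notch1 had 8.04 and 8.24 (0.20). Hes1, a transcriptional repressor gene induced by Notch, was below the filter in both arrays with 5.50 and 5.46 (-0.039), and its difference was 0.018 after correction for genomic span. Of 27 related genes 26 were measured and 22 passed the filter, of which 6 (27.3%) were at least 1.2-fold higher, beside 7.45% of all genes, and 0 lower, beside 8.89%, with a median of 0.12. Among the 6 was the receptor gene Notch3 (5.93 and 6.27), which passed the filter only through its Pot1a value, whereas the receptor gene Notch4, which passed in both arrays, was at -0.026. The highest were Maml1, a coactivator of the Notch transcription complex, at 0.46 (6.62 and 7.08), Dtx3, of the Deltex family, at 0.39 (8.17 and 8.56), and Ncstn, the nicastrin subunit of gamma-secretase that cleaves the receptors, at 0.37 (9.57 and 9.94).

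The Wnt receptors differed within each pair. Fzd4, a frizzled receptor, had 7.30 in control-GFP and 7.70 in Pot1a cells, a difference of 0.40 or 1.32-fold, and 2.25% of all genes above the filter had a difference at least as high. Fzd7, another frizzled receptor, was nearly equal at 6.63 and 6.62 (-0.0065). Of the LDL receptor-related coreceptors, Lrp5 had 9.75 and 9.94 (0.19) and Lrp6 9.24 and 9.23 (-0.012), although the dimmer second probe set of Lrp6 had a difference of 0.12. Of 34 related genes 32 were measured and 19 passed the filter, with a median of 0.084. At least 1.2-fold higher was 1 (5.26%), beside 7.45% of all genes, and 1 was lower, beside 8.89%. These were Sfrp1, a secreted Wnt antagonist, at 0.29 (5.77 and 6.06), and Ror2, a receptor of Wnt proteins, at -0.27 (6.40 and 6.13). The transcription factor gene Tcf7l1 was at 0.24 (5.82 and 6.07). Both Sfrp1 and Tcf7l1 passed the filter only through their Pot1a values.

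All 3 cytokine receptor genes above the filter were higher by similar amounts, with a median of 0.17. Il6st, which encodes gp130, the shared signalling chain of the IL-6 family, had 8.91 in control-GFP and 9.11 in Pot1a cells (0.20). Il3ra, the ligand-binding chain of the IL-3 receptor, had 8.24 and 8.41 (0.17), and Csf2rb, the common beta chain of the IL-3, IL-5 and GM-CSF receptors, had 7.77 and 7.93 (0.16). Csf2rb has a close mouse paralog, Csf2rb2, whose difference was 0.19, and probes may not separate the pair fully. Lifr, the LIF receptor chain that pairs with gp130, was below the filter with 5.27 and 5.12 (-0.16). Of 28 related genes 24 were measured and 18 passed the filter, with a median of 0.11. At least 1.2-fold lower were 0, beside 8.89% of all genes, and 1 (5.56%) was higher, beside 7.45%. This was Il6ra, the IL-6-binding chain that works through gp130, at 0.42 (7.52 and 7.94). Csf2ra, the GM-CSF-binding chain that works with the product of Csf2rb, was at 0.25 (7.06 and 7.32) and the signal transducer Stat5b at 0.24 (8.55 and 8.79).

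The growth factor receptors were higher within narrow limits. Igf1r, the receptor of insulin-like growth factors, had 8.47 in control-GFP and 8.64 in Pot1a cells (0.16), and Fgfr1, a fibroblast growth factor receptor, had 6.72 and 6.84 (0.12). Igf2r, which clears IGF2 and carries mannose 6-phosphate proteins to lysosomes, was below the filter with 5.68 and 5.72 (0.040). Of 25 related genes 22 were measured and 15 passed the filter, with a median of 0.061. At least 1.2-fold lower were 0, beside 8.89% of all genes, and 3 (20%) were higher, beside 7.45%. These were the adaptors Irs2 at 0.32 (6.59 and 6.90), Gab1 at 0.30 (7.25 and 7.54) and Gab2 at 0.27 (8.89 and 9.16).

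**Figure D3:**
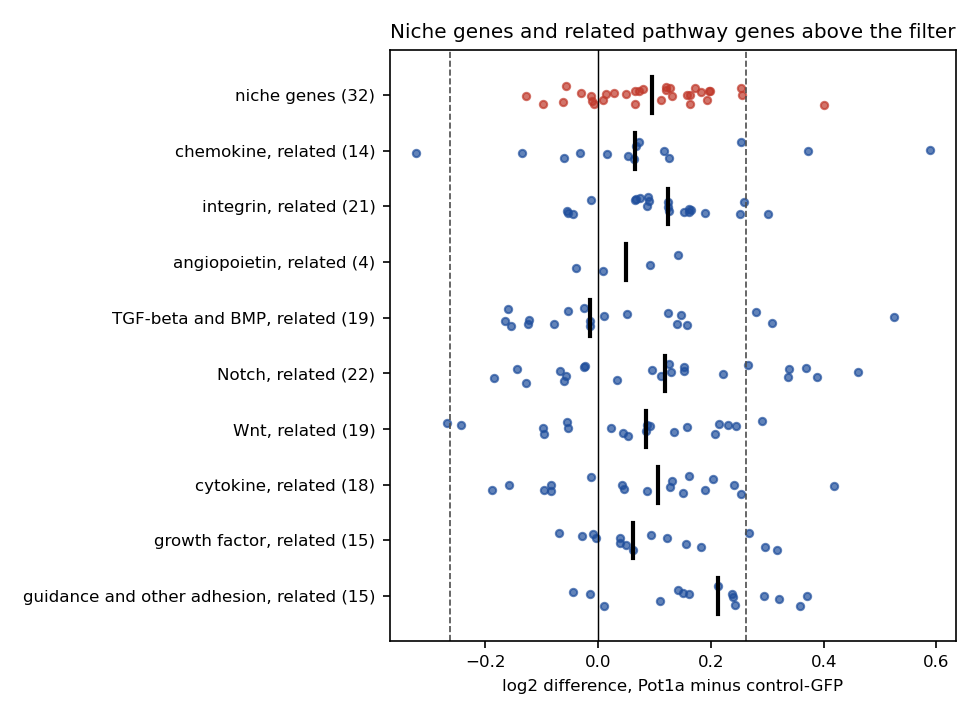
Log2 differences, Pot1a minus control-GFP, of the niche genes (red, 32 genes) and of the 9 lists of related pathway genes (blue), for genes above the filter, with black bars at the medians, dashed lines at 1.2-fold and the number of genes in parentheses. The medians of the related lists run from -0.015 for TGF-beta and BMP to 0.21 for guidance and other adhesion.

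Counting each related gene once, 146 of 214 measured genes passed the filter. In these, 101 (69.2%) were higher and 45 lower with a median of 0.091, beside 50.2% higher and 48.8% lower of all genes. At least 1.2-fold higher were 21 (14.4%), beside the 7.45% of all genes, and 2 were at least 1.2-fold lower, beside 8.89%. Of these 146 genes 9 passed the filter in 1 array only, and the other 137 held 17 higher and 1 lower past 1.2-fold. For all genes that pass in both arrays the share past 1.2-fold was not computed. Without a filter, 28 of the 214 were at least 1.2-fold higher and 9 lower, beside 10.7% and 13.9% of all 22184 genes. By any amount 130 of the 214 were higher and 82 lower, with a median of 0.062. Over all 22184 genes 10358 were higher and 11239 lower, with a median of -0.0062. The median of the related genes above the filter, 0.091, was close to the 0.095 of the niche genes. Cdh5 stands on both the angiopoietin and the guidance list.

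Level and gene size were compared with the differences, since both vary among the niche genes. The median of the 32 niche genes was 0.095 also after removing the trend of the difference with mean intensity over all genes. Over all genes above the filter the difference moved with the genomic span of a gene, from a median of -0.049 in the quintile with the shortest spans to 0.036 in that with the longest. The niche genes were long, with a median span of 46.9 kb against 20.5 kb for all genes above the filter, and 14 of 32 lay in the longest quintile. Their own medians did not rise with span. From the shortest to the longest quintile they were 0.16 (3 genes), 0.12 (4), 0.058 (4), 0.12 (7) and 0.076 (14). With the trend over all genes removed, the median of the 32 niche genes was 0.077.

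**Figure D4:**
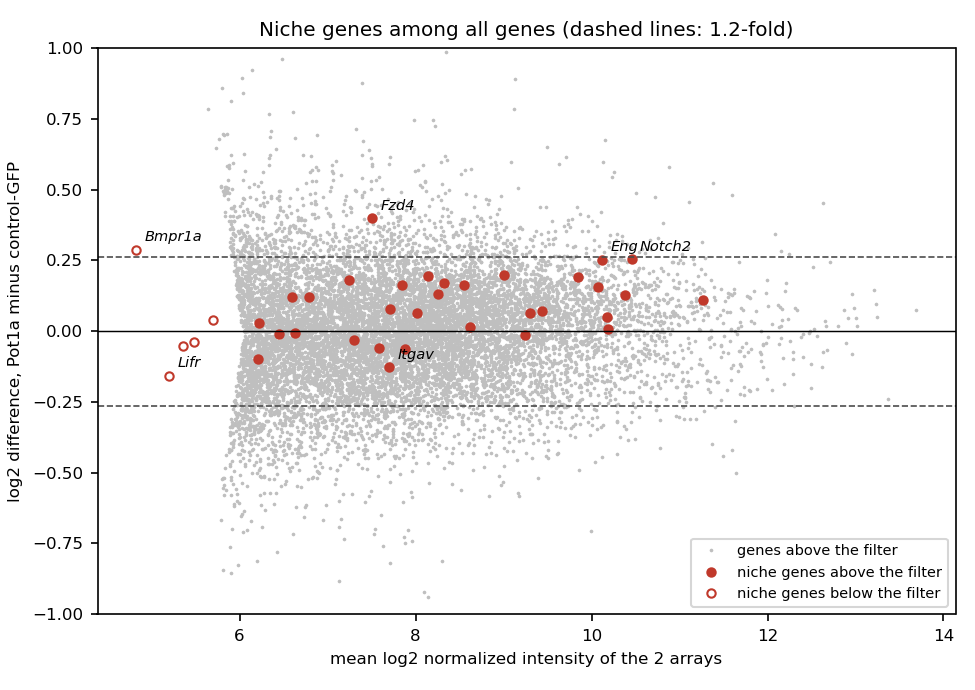
Log2 difference, Pot1a minus control-GFP, against the mean log2 intensity of the 2 arrays, for all genes above the filter (grey) and the niche genes (red, open if below the filter), with 4 genes beyond the vertical limits not shown. The 32 niche genes above the filter lie inside the cloud of all genes, and Fzd4 stands highest among them at 0.40.

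The labels were checked with the transduced gene and with cell type markers. Pot1a had 8.08 in control-GFP and 11.06 in Pot1a cells, 7.87-fold higher. Of 12 listed LT-HSC markers 11 were measured and all 11 passed the filter, with 5 higher, 6 lower and a median of -0.011. Kit, the receptor of stem cell factor, was at 11.54 and 11.66, and Ctnnal1 had the largest difference at -0.36. At least 1.2-fold higher was 1 of the 11 (9.09%), Gata2 at 0.32, beside 7.45% of all genes. At least 1.2-fold lower were 2, Ctnnal1 and Procr (-0.33), beside 8.89%. The gate excludes CD48, but its gene Cd48 was above the filter in both arrays at 7.59 and 7.84. On the list of 7 measured lineage and CD48 markers Ptprc, which HSCs themselves express, was at 9.80 and 9.73, and Itgam passed the filter only through its Pot1a value (5.91 and 6.04).

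Markers of other cells were summed as linear intensities, in the order control-GFP and Pot1a, over all measured genes of a list and over those above the filter. Of the myeloid markers 4 of 15 passed, Itgam again by the Pot1a array only, with sums of 1126 and 1159 over all 15 and 727 and 753 over the 4. Csf3r was at 8.13 and 8.21, and 3 of the 4 were higher and 1 lower. Of the mast cell and basophil markers only Gzmb (6.76 and 7.20, a difference of 0.44) of 6 passed. The sums over all 6 were 249.7 and 289.9, of which Gzmb alone made 108.5 and 146.8. The other 5 had differences from -0.050 to 0.065. Of the lymphoid markers only Cd79b (7.20 and 6.78, a difference of -0.42) of 13 passed. The sums over all 13 were 549.9 and 501.3, of which Cd79b alone made 147 and 110.1. The mast cell and lymphoid lists therefore rest on 1 gene each above the filter, and the sums over all genes include the 5 and 12 genes below it. Of the erythroid markers 4 of 8 passed, 2 higher and 2 lower, with sums of 1773 and 1709 over all 8 and 1627 and 1557 over the 4, among them Car2 (10.07 and 9.99) and Epor (-0.19). All 10 measured megakaryocyte markers passed, 4 higher and 6 lower with a median of -0.018 and sums of 3592 and 3543. Pf4 was at 9.73 and 9.72, and the largest difference was that of Gp5 at 0.24, which passed only through its Pot1a value (5.98 and 6.22). Of the endothelial markers 7 of 13 passed, 4 higher and 3 lower, with sums of 1932 and 1925 over all 13 and 1676 and 1682 over the 7. Pecam1 was at 9.22 in both arrays, Emcn had a difference of 0.36 and Egfl7 one of -0.25. Of the stromal markers 4 of 13 passed, 1 higher, 2 lower and 1 equal, with sums of 673.9 and 665.7 over all 13 and 374 and 380 over the 4. Pdgfrb was at 6.95 and 7.14, a difference of 0.19, and Col1a2 had a difference of -0.19. Some of these genes, such as Pecam1, are also expressed by HSCs. In sorted bulk cells, fewer cells of a type and less RNA per cell cannot be told apart, and the part of other cells in the differences of the niche genes was not tested.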

How the data were processed

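RNA from both LT-HSC samples was labelled and hybridized to Affymetrix gene arrays, 1 per condition. For 34365 probe sets the authors deposited linear intensities that had been normalized. RMA with quantile normalization in Expression Console is named in the methods for other arrays, of aged cells, whereas settings for the present pair were not found in the sources used. No detection calls were used, so which values lie at background is unknown. Per the labels RNA was isolated with TRIzol and a Promega kit.

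Log2 was taken of each intensity. Of the probe sets 23525 had 1 gene symbol in the platform annotation, 1816 had several and 9024 had none, and only the first were named. Entrez IDs of 23328 matched the RefSeq table of GRCm38.p6. The probe set with the highest mean stood for a gene. Of the niche genes 4 had a second probe set. Genes at or above the median in at least 1 array were kept (11453 of 22184). Counts were made at 1.2-fold, with 1.5-fold and 2-fold as alternatives. Since each condition had 1 array, neither p-values nor standard errors were computed. The members, lists and rules were chosen with earlier results of these data known. All niche genes are given, with the 3 related genes of each list that had the largest absolute difference above the filter, the marker with the highest mean and the marker with the largest difference. Csf2rb2, Notch3, Notch4, Egfl7, Col1a2, Procr and Gata2 were named after their values were seen. Of 231 related genes 17 had no probe set with a single symbol here and were not analysed.

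Alternatives were the mean or median of probe sets, centring on the median, loess correction (fraction 0.3) for mean intensity, a filter at the 75th percentile, on the mean of both arrays or absent, and, added after seeing the data, loess correction for genomic span. The steps were tested on simulated data with planted 2-fold differences and noise smaller than the spread seen between these arrays. That test does not cover differences near 1.2-fold. Computation used statsmodels 0.14.6, pandas 2.3.3 and numpy 2.4.6 under Python 3.11.15, with figures from matplotlib 3.10.9. A detail of the culture is not reported here.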

Additional observations from a re-analysis of the deposited data

How the results depend on the processing

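The median difference of the niche genes was positive under every alternative run, from 0.072 without a filter to 0.13 with a filter at the 75th percentile, which left 20 of the 37 genes. The number at least 1.2-fold higher was 1, and it was 2 with probe sets averaged or their median taken (Fzd4 and Selplg), 2 without a filter (Fzd4 and Bmpr1a), 0 at the 75th percentile, 0 at 1.5-fold and 0 at 2-fold. The number lower was 0 under all of them. Over all genes, 853 were higher and 1018 lower of 11453 in the main setting. With probe sets averaged 866 and 1006 of 11452 were, and with their median 870 and 1010 of 11453. Without a filter these numbers were 2378 and 3089 of 22184, and at the 75th percentile 376 and 383 of 5776. At 1.5-fold they were 58 and 51 of 11453, and at 2-fold 3 and 1. A median counted as moved when it shifted by over 0.05. Without a filter the median of other adhesion and guidance molecules moved from 0.11 to 0.050. With the filter at the 75th percentile the median of the chemokine receptors moved from 0.030 to 0.16, since Cxcr4 alone was left, and that of the TGF-beta and BMP group from 0.080 to 0.13. The other group medians moved by less. Of single genes, averaging of probe sets gave 0.39 for Selplg, 0.020 for Cdh2 and 0.052 for Lrp6. Correction for genomic span gave 0.21 for Cxcr4 and 0.018 for Hes1. Signs changed with probe sets averaged for Cdh2 and Lrp6, with the intensity trend for Ephb4, Bmpr2 and Fzd7, and with the span trend for Itgb1, Bmpr2, Hes1 and Fzd7, whose differences had been between -0.054 and 0.015. No paired analysis was possible because there are no replicates, and for the same reason none was left out in turn.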
